A study of Homo sapiens with 19 samples.

Results

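Nonsense-mediated decay (NMD) transcripts were examined in SH-SY5Y cells, a human neuroblastoma line, before and after acute stress by sodium arsenite (AS). They are the transcripts that the GENCODE annotation types as nonsense_mediated_decay and whose value was above 1 in at least one of the libraries. Of the 256980 transcripts in the table, 18936 carried this type. Of these, 12900 (68.1%), from 4955 genes, were above 1 and form the members described here, and the other 6036 were at or below 1, with 2284 of them at 0 in both libraries. The members made up 12.8% of the 100705 transcripts of any type above 1. At the edge of the rule, transcripts of NAAA and PRMT3 at 0.9997 in AS-treated cells stayed outside, and transcripts of SLC25A36 at 1.0008 and CDK7 at 1.0016 came inside.

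The comparison addresses how annotated NMD substrates changed under AS, and whether they changed apart from the canonical transcript of their gene, the reference isoform marked by Ensembl. Total RNA was depleted of rRNA and sequenced from untreated cells and from cells given 500 μM AS for 1 h. Each condition had 1 library of the same line and no separate cultures are named, so no difference has a replicate check and no test was made. The series also holds gene-level poly-A libraries, among them siCtrl (control knockdown), Total (lysate of AS-treated cells) and SG (cores of stress granules, SGs), with 1 library each.

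The deposited values are called TPM by their header but behave as RPKM, reads scaled by the length of the transcript in kilobases and by library size. The scaling recovered from the values rests on 13291958 reads before and 11281587 reads after AS. In 94173 pairs of transcripts of a gene in which one held every exon base of the other, 0 had fewer reads in the larger transcript, and the same held for 1908 such pairs on opposite strands. A read was thus counted for every transcript whose exons it overlapped, without regard to strand, and isoforms of a gene share their reads in these values. This limits every comparison of an NMD transcript with its canonical partner below. Over transcripts above 1 in both libraries the median ratio of AS-treated to untreated was 1.19 (0.25 on the log2 scale), and changes are to be read against this shift. Of the markers of sympathetic neuroblastoma, 12 of 14 were above 1 in both libraries, with DBH at 161 and 179 RPKM in untreated and AS-treated cells and HAND2 at 149 and 147. TH, a defining enzyme of the lineage, was at 0.0412 and 0.0485. Of 8 markers of glia, fibroblasts, leukocytes, epithelium and blood, 0 were above 1 in untreated cells, and in AS-treated cells 1 was, CD68 at 2.03. In bulk RNA fewer cells of a type and less RNA per cell cannot be told apart.

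NMD destroys mRNAs on which translation stops early. An exon junction complex left on the mRNA at a splice junction well downstream of the stop codon recruits UPF1 and its partners, and the SMG factors then lead to cleavage and decay. The pathway needs ongoing translation, which AS lowers through phosphorylation of eIF2α, while untranslated mRNAs gather in SGs. Many regulators of splicing, above all the SR proteins, hold NMD isoforms of their own mRNA.

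The members carried stops placed as the pathway reads them, which is the basis of the annotated type and not a result of these libraries. A stop codon was annotated in 12895 members, and in 12892 it lay at least 50 nt upstream of the last splice junction. The median distance was 402 nt, with a median of 3 junctions downstream. The annotated coding sequence had a median of 327 nt, against 1494 nt in the canonical transcripts of their genes. Among the members, 58.4% of the stop codons were TGA, 21.9% TAA and 19.7% TAG, and among the canonical transcripts these shares were 50.1%, 28.8% and 21.1%.

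The stop codons of transcripts from 14 genes are printed below as examples of the annotated stops. First come transcripts of stress-induced and splicing-related genes that were higher under AS, then those of SR-type splicing regulators, then a pair whose reads fell. Each line gives the gene, the transcript and the GRCh38 position and strand of its stop codon, then 30 nt of the spliced transcript, 5′ to 3′, with the stop codon in capitals.
JUN ENST00000678696.1 (chr1:58782075-58782077, minus strand): cagttgcaaacatttTGAagagagaccgtc
MT1X ENST00000564974.1 (chr16:56683275-56683277, plus strand): ggggatgggccaagtTAGagcagggaaccc
ATF3 ENST00000464547.5 (chr1:212619103-212619105, plus strand): gttgactcatgcaaaTGAggtatctgaact
CCNL1 ENST00000477127.5 (chr3:157157053-157157055, minus strand): ttaccaaagcctgggTGAtgtggagtggta
CLK1 ENST00000432425.5 (chr2:200859726-200859728, minus strand): aaattgttgatacttTAGgtgaaggagctt
JMJD6 ENST00000303996.10 (chr17:76721285-76721287, minus strand): actgtgtcccaacccTGAcctggagggacc
IFRD1 ENST00000674915.1 (chr7:112470911-112470913, plus strand): gagtccatggttggtTGAatccgtgatgca
PPM1D ENST00000392995.7 (chr17:60656962-60656964, plus strand): ctcgattcaagaaagTGAtgtaacttatta
TRA2A ENST00000448549.1 (chr7:23521764-23521766, minus strand): caggtcaggatctcgTAGtccatcaagggt
TRA2B ENST00000456380.5 (chr3:185931772-185931774, minus strand): aagctcaggaataagTGAagctgaaatttg
SRSF3 ENST00000477442.6 (chr6:36599852-36599854, plus strand): cttctcaccaccctcTGAatctgcattagc
SRSF7 ENST00000443213.5 (chr2:38749516-38749518, minus strand): agcaggtatttatttTAAtaaaggaatggt
LDHA ENST00000536528.5 (chr11:18402849-18402851, plus strand): atgaagtggatatctTGAcctacgtggctt
EEF1B2 ENST00000435123.1 (chr2:206160564-206160566, plus strand): atcgaggggtgtgtgTGAatgtttctgtgt
Apart from that of JUN, the printed stops end reading frames shorter than that of the canonical transcript, by varying amounts. The TRA2A transcript reaches its TAG after 63 codons, where the canonical transcript has 282, and TRA2B reaches its TGA after 38 of 288. The stop of SRSF3 comes after 124 codons against 164 and that of CLK1 after 136 against 484. Longer frames remain in PPM1D, with 430 of 605 codons, and JMJD6, with 335 of 403. JUN stands apart, since its NMD transcript ends at the same stop as the canonical mRNA after 331 codons, but has 3 splice junctions in the sequence behind it. Including JUN, 600 members shared the stop codon of the canonical transcript.

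As a class, NMD transcripts had the same median change under AS as the canonical mRNAs of their genes. The median log2((AS + 1)/(untreated + 1)) of the members was 0.25, with quartiles of 0.09 and 0.42. It was 0.25 in the 4614 canonical transcripts of the same genes that were above 1, 0.23 in protein_coding, 0.16 in retained_intron and 0.18 in lncRNA transcripts, and 0.22 over all transcripts above 1. The median member stood at 3.92 RPKM in untreated and 4.91 in AS-treated cells. NMD transcripts made up 10.6% of the summed values of the untreated library and 10.8% of the AS library. Reads shared with other isoforms are part of these sums, so they do not measure the abundance of NMD isoforms.

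**Figure D1:**
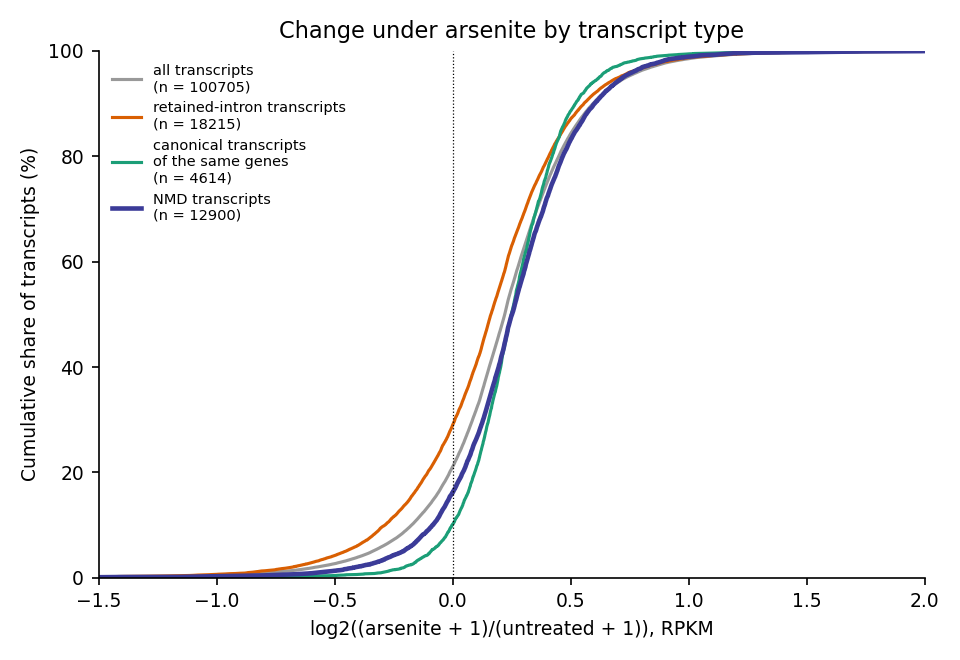
Cumulative share of transcripts, in percent, by their log2 change under AS, for NMD transcripts, the canonical transcripts of their genes, retained-intron transcripts and all transcripts above 1 RPKM in at least one library. The curve of the NMD transcripts crosses that of the canonical transcripts near their common median of 0.25, and the retained-intron curve lies to the left with a median of 0.16.

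A member was called higher where AS exceeded untreated by more than 2-fold, and lower where it was below 0.5-fold, with the higher library above 1. By this rule 807 members in 551 genes (6.26%) were higher, where 6.84% of all transcripts above 1 were. Lower were 129 members in 110 genes (1.00%), against 2.01% of all transcripts. Both shares thus lay near or below the background. Of the canonical transcripts of the same genes, which are longer, 2.69% were higher and 0.303% lower. With the median ratio of all transcripts set to 1 the split was 327 higher and 224 lower. Many calls rested on few reads: the members called higher had a median of 25 reads in their higher library, and 378 of the 906 calls with recoverable reads had under 20. Among members above 10 RPKM, 1.25% were higher and 0.287% lower, that is 39 transcripts of 20 genes and 9 transcripts of 5 genes. Of all transcripts above 10 RPKM, 1.15% were higher and 0.172% lower, so at this level the shares of the members lay slightly above the background.

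Short transcripts carried most of the calls. Members up to 1000 nt were higher in 10.6% of cases and lower in 2.08%, and members over 4000 nt in 1.74% and 0.372%. All transcripts followed the same course, from 10.7% higher up to 1000 nt to 2.05% over 4000 nt. Of the 785 calls of a higher value whose reads could be recovered, 419 had a 95% counting interval of the ratio that lay wholly above the general shift of 1.19, and 63 one wholly above 2. These intervals (exact, conditional on the sum of the reads) cover counting error only. Of the members with recovered reads, 0.501% had an interval above 2, against 0.675% of all transcripts.

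JUN, a subunit of the AP-1 transcription factor, had the largest log2 change among members above 10 RPKM. Its NMD transcript went from 1.74 to 51.8 RPKM, or from 66 to 1666 reads, a ratio of 29.7 (95% counting interval 23.3 to 38.6). The canonical JUN mRNA, which shares 87.1% of the bases of the NMD transcript, changed 28.1-fold. MT1X, a metallothionein that binds metals, went from 2.19 to 24.5 RPKM (16 to 152 reads, interval 6.67 to 20.1), and its canonical transcript from 2.61 to 24.6.

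Of the list of integrated stress, oxidative stress and immediate-early genes, 24 NMD transcripts were members, of which 6 were higher and 0 lower. Their median log2 change was 0.38, and that of the canonical transcripts of the same genes was 0.45. Over all transcripts the median was 0.22, with 6.84% higher and 2.01% lower. The counts of the lists that follow are to be read beside the same shares. Besides JUN and MT1X the higher members of this list were transcripts of ATF3, DDIT4, HERPUD1 and HMOX1. ATF3, a transcription factor of the stress response, went from 0.392 to 4.39 RPKM with 4 and 38 reads. DDIT4, an inhibitor of mTORC1, went from 2.25 to 7.82 RPKM with 41 and 121 reads. HERPUD1, a protein of the endoplasmic reticulum (ER), went from 2.07 to 5.78, and HMOX1, heme oxygenase 1, from 0.576 to 1.72 RPKM. The canonical transcripts of these 4 genes changed with them: the ratio was 11.2 in the NMD and 11.1 in the canonical transcript of ATF3, 3.48 and 3.62 in DDIT4, 2.78 and 2.22 in HERPUD1, and 2.99 and 2.90 in HMOX1. The NMD transcripts share 71.2% (ATF3) to 100% (HERPUD1) of their bases with the canonical ones. BTG2 and DUSP10 are named here after their values were seen, among many unrelated genes whose members had a counting interval wholly above 2. BTG2, an antiproliferative early-response gene, had a member that went from 0.649 to 5.01 RPKM (11 to 72 reads). DUSP10, a phosphatase of stress-activated MAP kinases, had 3 such members, one of which went from 0.463 to 3.44 RPKM (10 to 63 reads).

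Higher members above 10 RPKM also came from CCNL1, CLK1 and JMJD6, which act on splicing. All 6 members of CCNL1, cyclin L1, a partner of splicing-related kinases, were higher, by 3.03- to 3.88-fold. The CCNL1 transcript whose stop is printed above went from 9.20 to 33.1 RPKM with 179 and 547 reads. Its canonical mRNA changed 3.43-fold, from 7.91 to 27.1 RPKM. CLK1, a kinase that phosphorylates SR proteins, had members at 7.07 and 16.4 RPKM and at 4.79 and 11.9 RPKM in untreated and AS-treated cells. Their ratios of 2.33 and 2.48 stood beside a canonical ratio of 2.36. JMJD6, a hydroxylase that modifies splicing proteins, had a member that went from 6.28 to 15.1 RPKM, a ratio of 2.40 against 2.45 in its canonical transcript.

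Several other genes with higher members above 10 RPKM showed the same parallel with their canonical mRNA. The parallel is partly built into the counting of shared reads. The PPM1D and INTS6 members share 96.3% and 92.5% of their bases with the canonical transcript, and the CLK1 members above 100% and 99.8%. All 4 members of IFRD1, a regulator of transcription, changed between 2.21- and 2.23-fold and the canonical transcript 2.22-fold. All 6 members of SLC3A2, the heavy chain of amino acid transporters, changed between 2.01- and 2.09-fold, and the canonical transcript 2.07-fold. PPM1D, a phosphatase of the p53 pathway, went from 8.96 to 19.0 RPKM (357 to 643 reads), a ratio of 2.12 against 2.09. INTS6, a subunit of the Integrator complex, went from 3.97 to 10.2 RPKM (199 to 434 reads), a ratio of 2.57 against 2.56. PPP1CB, a catalytic subunit of protein phosphatase 1, did not follow this parallel: its member went from 4.50 to 11.1 RPKM, a ratio of 2.46, and its canonical transcript from 22.1 to 30.2, a ratio of 1.37. The reads of this PPP1CB member could not be recovered, so its ratio has no counting interval. SRRT, a nuclear RNA-processing factor, had a member that went from 5.17 to 10.4 RPKM (interval 1.40 to 2.90), beside a canonical ratio of 1.24. CTDSPL2, a phosphatase, stood at a ratio of 2.09 (62 to 110 reads, interval 1.52 to 2.90) against 1.55. DDX50, a nucleolar RNA helicase, had members that went from 6.13 to 12.4 and from 5.85 to 12.9 RPKM, beside a canonical ratio of 1.64. These DDX50 members had 87 and 149 reads and 69 and 129 reads, with intervals that began at 1.54 and 1.63. The intervals of the CTDSPL2 and DDX50 members thus held the canonical ratio, and their departure from it lay within counting error.

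**Figure D2:**
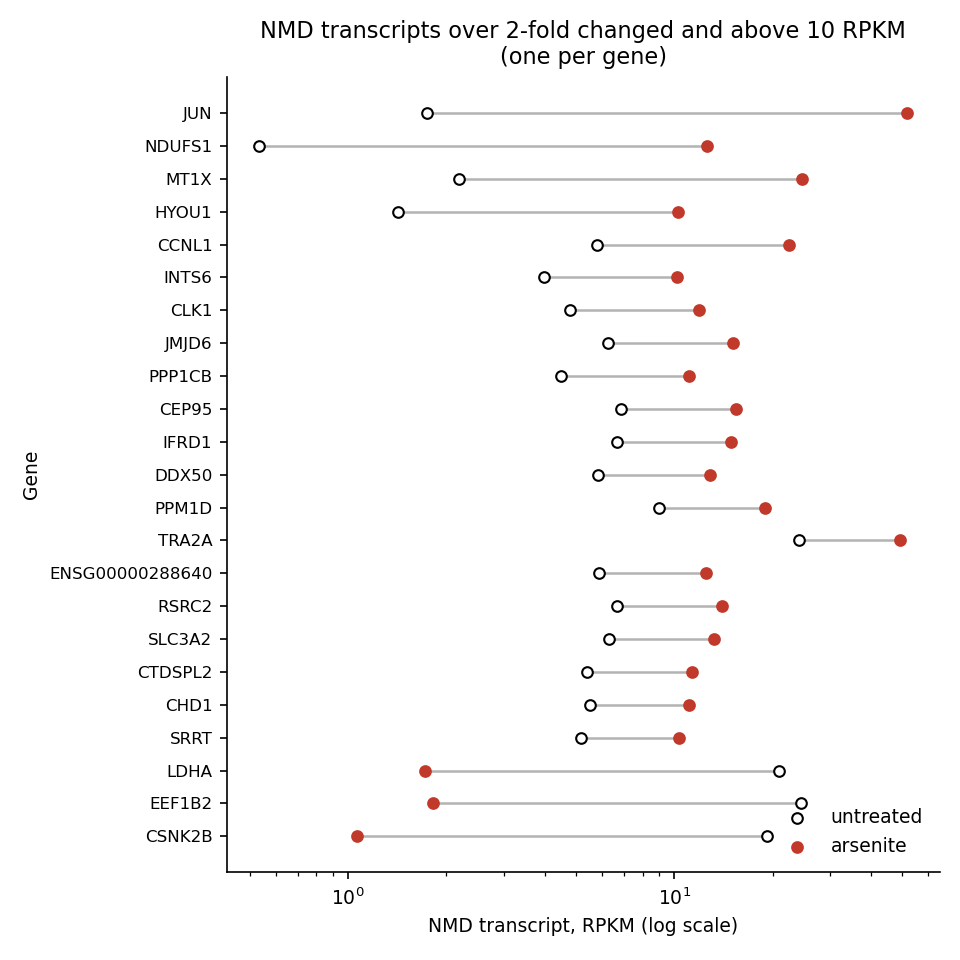
RPKM on a log axis in the untreated (open circles) and AS-treated library (filled circles) for NMD transcripts above 10 RPKM and changed by more than 2-fold, with 1 transcript for each of 23 genes, the one with the largest change. JUN spans 1.74 to 51.8 RPKM, and the lower transcripts, of CSNK2B, EEF1B2 and LDHA, lie at the bottom.

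The 14 SR protein and TRA2 genes all had members, 27 transcripts in total. These were tilted upwards as a list, with a median log2 change of 0.45 against 0.22 over all transcripts, and 24 of the 27 lay above that median. Only TRA2A passed the 2-fold rule, however, and the canonical transcripts of the same genes had a median of 0.38. TRA2A, a splicing activator that controls its own splicing, had a member that went from 24.0 to 49.2 RPKM (186 to 323 reads), a ratio of 2.05 with an interval of 1.70 to 2.46. Its canonical transcript went from 28.3 to 46.8 RPKM, a ratio of 1.65, and the other TRA2A member from 24.5 to 42.0, a ratio of 1.71. The TRA2B member went from 39.0 to 74.2 RPKM (879 to 1421 reads), a ratio of 1.90 (interval 1.75 to 2.07) against 1.73 in the canonical transcript. SRSF2 had members at 97.0 and 148 RPKM and at 92.9 and 140 RPKM, with ratios of 1.52 and 1.51 against 1.44.

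Members of a gene differed to varying degrees in this family. The 6 members of SRSF7 had ratios between 1.37 and 1.72, or log2 changes between 0.44 and 0.76, and the log2 change of the canonical transcript was 0.56. The highest was that of ENST00000415527.1, from 23.0 to 39.7 RPKM (347 to 508 reads), of which 576 bases lie in no exon of any transcript of another type. ENST00000431066.5 and ENST00000443213.5 had more such bases, 616 each, but log2 changes of 0.46 and 0.45, below that of the canonical transcript. ENST00000425778.5 and ENST00000425941.6, with 434 each, stood at 0.56 and 0.60, and ENST00000432873.5, with 69, at 0.44. The 2 SRSF3 members had ratios of 1.36 and 1.21 against a canonical 1.37. SRSF9 was near 1, from 27.7 to 28.9 RPKM, and below the general shift. SRSF10 had 1 member with fewer reads under AS, from 38 to 21, and another at 19.9 RPKM in untreated cells with a ratio of 1.26.

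Other splicing regulators were less uniform. The list of hnRNPs and related factors held 172 members with a median log2 change of 0.20. Of these 3 were higher and 5 lower, where 6.84% and 2.01% of all transcripts above 1 were. The higher ones were the CLK1 pair and an HNRNPA1 transcript with only 2 and 5 reads. The 5 lower ones were all from HNRNPH1, as described below. HNRNPA2B1 contributed 35 members, whose ratios ran only from 1.11 to 1.19, with log2 changes from 0.15 to 0.24 around the canonical 0.17. RBM39, a splicing factor with autoregulated isoforms, had 16 members between 1.18- and 1.86-fold, with a median log2 change of 0.63 against 0.60 in the canonical transcript. The 4 members of PTBP2, whose NMD isoform is a known target outside neurons, had ratios from 1.61 to 1.69 with a canonical ratio of 1.61.

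The list of endogenous NMD targets, genes whose decay by this pathway is a standard example, held 91 members in 18 genes. Their median log2 change was 0.32, and that of the canonical transcripts of the same genes was 0.35. Higher were 3 members, of TRA2A and UPP1, and 0 were lower, beside 6.84% and 2.01% of all transcripts above 1. UPP1, uridine phosphorylase, had transcripts that went from 0.236 to 1.02 RPKM and from 0.346 to 1.43 RPKM, with at most 14 reads. The 8 members of TBL2 ranged from a ratio of 1.11 to one of 1.54. BAG1 went from 6.25 to 11.1 RPKM, a ratio of 1.78 (interval 1.40 to 2.27), and SMG1, itself an NMD kinase, from 103 to 119 reads, a ratio of 1.36 (interval 1.04 to 1.79). This list shares genes with the others, among them SR and TRA2 genes, HNRNPA2B1, PTBP2, RBM39, SMG1 and BAG1.

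Of the NMD and exon junction complex factors, 24 transcripts in 16 genes were members, with a median log2 change of 0.27. SMG8, a regulator of the SMG1 kinase, had the only call, from 1.42 to 3.19 RPKM on 11 and 21 reads. RNPS1, a splicing factor of the exon junction complex, went from 34.6 to 51.2 RPKM (400 to 503 reads), a ratio of 1.48 (interval 1.30 to 1.69), beside 1.22 in the canonical transcript, which holds all of its bases. NMD transcripts of proteins found in SGs, 100 members in 18 genes, had a median of 0.34 with 0 higher and 2 lower, of DDX3X and G3BP1. The G3BP1 transcript had only 9 and 2 reads. PABPC1, the poly(A)-binding protein, had members at 169 and 178 RPKM, at 125 and 126, and at 121 and 135 in untreated and AS-treated cells.

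The lists of translation factors, ribosomal proteins and heat shock chaperones held few calls. The 105 members of translation factor genes had a median of 0.29 with 0 higher and 5 lower, of EEF1B2 and EEF1D. Of all transcripts above 1, 6.84% were higher and 2.01% lower. The 57 members of ribosomal protein genes had a median of 0.18 with 0 higher. Ribosomal protein transcripts were also among the 10 members with the highest mean value: RPS2 stood at 673 and 748 RPKM and RPS27 at 401 and 454. The highest of all was an ACTB transcript, with 1028 and 1175 RPKM a ratio of 1.14, and TUBA1B stood at 413 and 467. Of the 60 members of the heat shock chaperone list, which does not hold HYOU1 or DNAJB14, 1 was higher, of TCP1, from 3.08 to 8.85 RPKM on 23 and 56 reads. HSP90AA1, a cytosolic chaperone, had a member at 92.9 and 144 RPKM, a ratio of 1.55 against 1.52 in the canonical transcript.

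**Figure D3:**
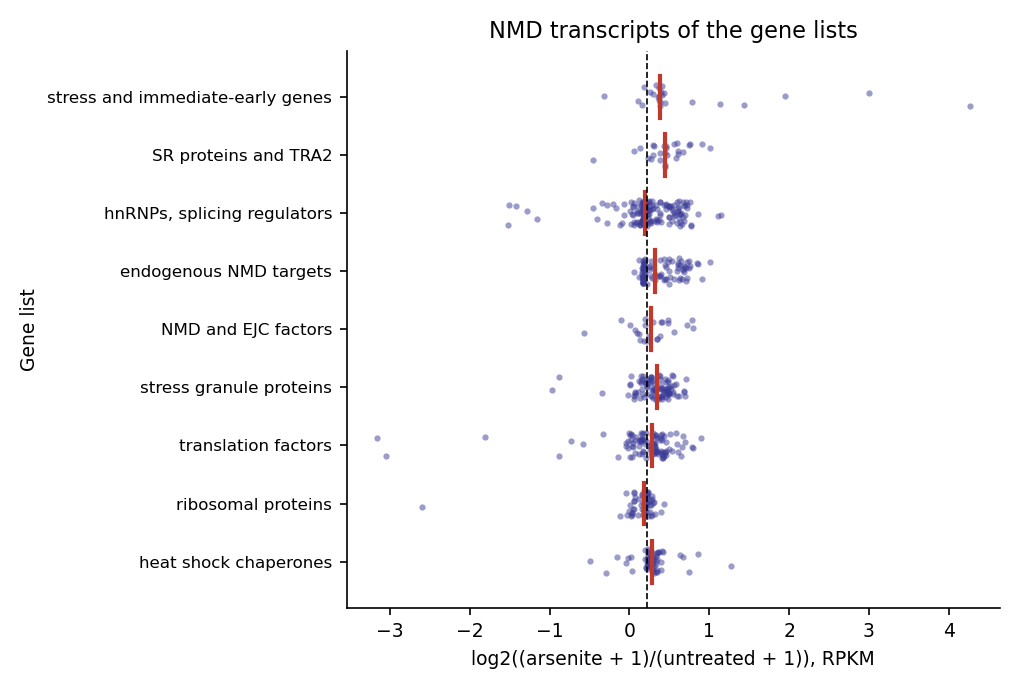
Log2 change under AS of each NMD transcript (points) in the 9 gene lists, with the median of each list as a red bar and the median of all transcripts, 0.22, as a dashed line. The SR list has the highest median, 0.45, and the stress list the widest upper tail, up to 4.27 for JUN.

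Set beside the canonical transcript of its gene, an NMD transcript rarely had a value that changed apart from it. Reads on shared bases count for both, so small differences are partly built into the counting. The values do not show whether NMD isoforms moved on their own. A canonical partner was in the table for 12619 members, leaving aside 187 members that are themselves marked canonical. The difference in log2 change, NMD minus canonical, had a median of 0.00, with 5% of the differences below -0.36 and 5% above 0.35. It was within 0.2 in 76.5% of pairs, above 0 in 6290 and below 0 in 6329. The NMD transcript made up a median of 47.0% of the sum of both in untreated and 47.1% in AS-treated cells. A read counts for each isoform it overlaps, so this share does not measure how abundant the NMD isoforms were. A difference above 1 was found in 19 members (0.151%) and one below -1 in 43 (0.341%). Over all other non-canonical transcripts these shares were 0.258% and 0.712%. Shared bases, length and read depth were not matched between these sets, so the shares do not rank NMD isoforms by divergence.

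Shared reads limited this comparison. The members shared a median of 93.5% of their bases with the canonical transcript, and 2689 (21.3%) shared all of them. The middle of the distribution widened where less was shared: the median absolute difference was 0.183 in members with up to 50% shared and 0.0446 in those with 90% to just under 100%, but 0.0923 in those that shared all bases. Of all members 7273 (56.4%) had no base outside the exons of other transcript types, and their median log2 change was 0.25. In the 181 members with more than 50% of their bases to themselves the median log2 change was 0.21, and the median difference from the canonical transcript -0.05, with quartiles of -0.20 and 0.12. In this subset 13.8% were higher and 2.76% lower, at a median of 1.98 RPKM in untreated cells. In 50 genes an NMD transcript held a whole transcript of another type plus bases annotated to NMD transcripts only, at a median of 129 nt. Reads counted for the NMD transcript but not for the contained one amounted to 43 in untreated and 95 in AS-treated cells. Of the latter 41 came from the histone gene H4C8, which had 0 in untreated cells. In 26 of the 50 genes 0 such reads were left in both libraries. A read on the NMD-only bases that also touched the contained transcript is missing from these counts. Untreated cells had 5.39 of the remaining reads per kb of NMD-only bases, and 107 reads per kb on the contained transcripts, where every overlapping read counts. These densities follow unlike counting rules, so they do not show how strongly the NMD-only bases were expressed.

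**Figure D4:**
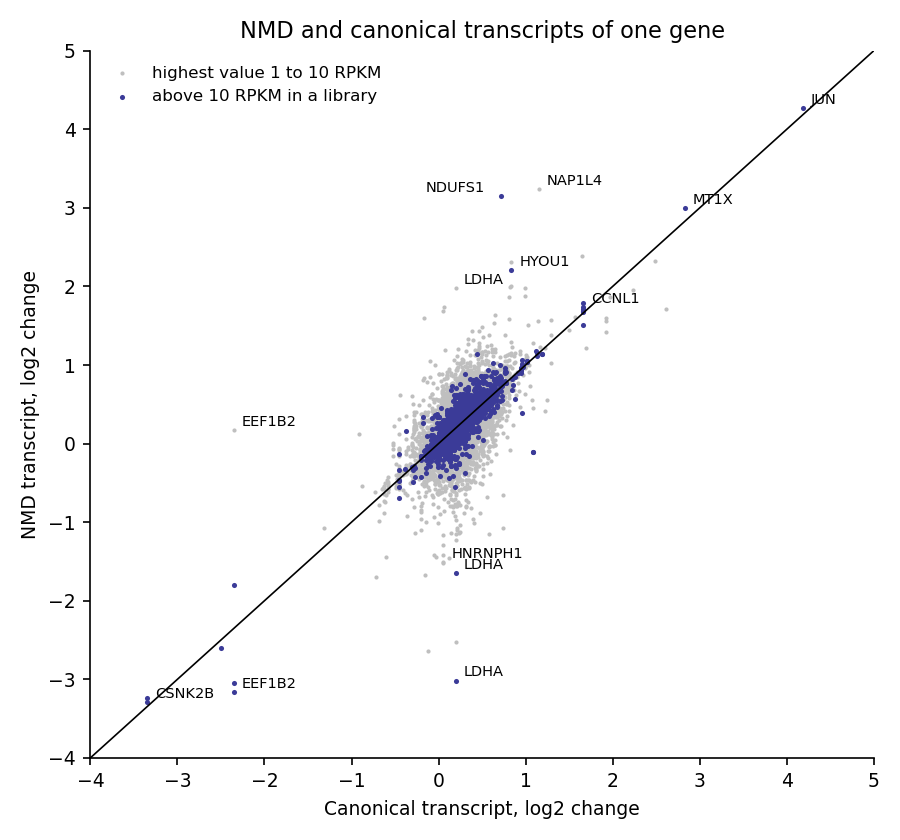
Log2 change under AS of each NMD transcript against that of the canonical transcript of its gene, with members above 10 RPKM in blue and the others in grey, and a line of equal change. JUN, MT1X, CCNL1 and CSNK2B lie near the line, and LDHA, NDUFS1, HYOU1 and some EEF1B2 transcripts far from it.

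The features that mark a stop as premature went along with little difference in the median response, but with a difference in the share of calls. Members with 1 junction downstream of the stop had a median log2 change of 0.23 and those with 8 or more of 0.27. With 1 junction 8.52% were higher and 1.99% lower, and with 8 or more 2.24% and 0.276%. The quartiles of the difference from the canonical transcript were -0.13 and 0.10 with 1 junction, and -0.03 and 0.04 with 8 or more. Members whose stop lay 50 to 150 nt before the last junction had a median of 0.23, and those beyond 1000 nt one of 0.26. Of members with a stop 150 to 500 nt before it 8.22% were higher, and beyond 1000 nt 2.17%. Calls also varied with transcript length, as given above, and its part in these shares was not tested. By stop codon the medians were 0.29 for TAA, 0.25 for TAG and 0.24 for TGA, and the median difference from the canonical transcript was 0.00 for each. In the 2630 genes with at least 2 members, the SD of the log2 change was 0.199 within genes and 0.280 between gene means. Members of a gene share reads in these values, so a smaller spread within genes is built into the counting. MTO1, a mitochondrial tRNA-modifying enzyme with the largest number of members, had 54, with ratios from 1.48 to 1.85.

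Most genes with a member whose log2 change differed by more than 1 from that of the canonical transcript had only 1 such member. The loci that follow were picked out by this difference after their values were seen. In LDHA, lactate dehydrogenase A, the member whose stop is printed above went from 21.0 to 1.72 RPKM, or from 144 to 10 reads, a ratio of 0.0818 (interval 0.0384 to 0.155). Another LDHA member, ENST00000486690.6, went from 203 to 50 reads. The canonical LDHA transcript, which holds every base of the first, kept 267 and 263 reads. A further LDHA member, ENST00000541097.5, also held entirely in the canonical transcript, moved the other way, from 10 to 53 reads. The member ENST00000545215.5 had 248 and 241 reads. Reads were thus distributed differently along the LDHA locus in the libraries, in protein_coding transcripts as well, where ENST00000227157.8 went from 206 to 55 reads.

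EEF1B2, a nucleotide exchange factor of translation elongation, was lower across most of its transcripts. The canonical transcript went from 321 to 46 reads, and its 3 lower members from 160 to 10, from 126 to 8 and from 129 to 24. The EEF1B2 member ENST00000455150.1 stayed at 22 reads in each library and so had a difference of 2.53 from the canonical transcript, the largest positive one of all pairs. The neighbouring NDUFS1, a subunit of respiratory complex I on the opposite strand of chromosome 2, had a member that went from 0.535 to 12.6 RPKM, or from 4 to 80 reads (ratio 23.6, interval 8.85 to 88.6). The canonical NDUFS1 transcript went from 50 to 154 reads.

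HYOU1, an ER chaperone, had 3 members well above their canonical transcript. They went from 1.43 to 10.2 RPKM, from 1.56 to 9.28 RPKM and from 0.274 to 5.32 RPKM, the second of them on 51 and 258 reads. The canonical HYOU1 transcript, with which they share at least 93.2% of their bases, went from 3.81 to 7.56 RPKM, a ratio of 1.98. The NAP1L4 member ENST00000492685.5, of a histone chaperone gene, went from 0 to 81 reads, and its canonical transcript from 67 to 160. In HNRNPH1 the 5 lower members had ratios from 0.240 to 0.331, while the canonical transcript stood at 12.2 and 12.7 RPKM. DDX3X, an RNA helicase found in SGs, had a member that went from 162 to 67 reads and shares only 15.2% of its bases with the canonical transcript, which went from 2017 to 2397 reads. An antisense or overlapping gene cannot be separated from these counts, since they do not use strand.

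**Figure D5:**
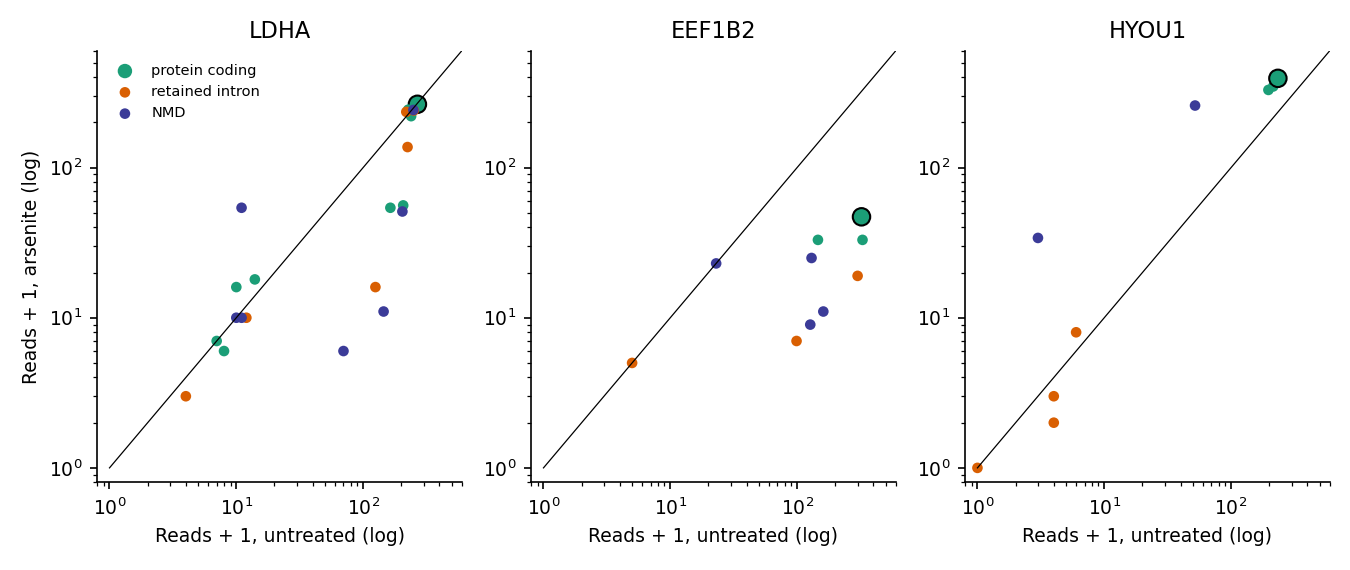
Reads + 1 on log axes in untreated and AS-treated cells for the transcripts of LDHA, EEF1B2 and HYOU1 whose reads could be recovered, coloured by type, with the canonical transcript as a large outlined circle and a line of equal reads. In LDHA the NMD transcripts fall on both sides of the line and the canonical transcript, with 267 and 263 reads, lies on it, in EEF1B2 most lie below the line, and in HYOU1 they lie further above it than the canonical transcript.

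CSNK2B, the regulatory subunit of casein kinase 2, had lower values in its members and its canonical transcript alike. The members went from 254 to 12 and from 257 to 12 reads, as did its canonical transcript, from 258 to 12.

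The gene-level libraries give a second view of these host genes, in TPM of poly-A RNA, on siCtrl cells and on Total from AS-treated cells. These libraries differ from the rRNA-depleted pair in their preparation and, by their labels, in the AS concentration. The labels give AS treatment for siCtrl as well, although the methods do not describe the knockdown cells as stressed, so siCtrl cannot be taken as surely untreated and the values are set side by side only. JUN was at 22.1 TPM in siCtrl and 216 in Total, MT1X at 67.3 and 231, ATF3 at 5.77 and 28.9, and CCNL1 at 19.4 and 35.6, all higher in Total. LDHA, EEF1B2 and CSNK2B, which had lower members, were not lower there: LDHA stood at 204 and 254 TPM, EEF1B2 at 369 and 464 and CSNK2B at 131 and 163. HYOU1, whose members were higher, was at 60.4 and 33.1 TPM. IFRD1 was at 18.2 and 18.4 and PPM1D at 10.6 and 11.4.

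Host genes of the members were enriched in SG cores in a slightly smaller share than other genes, a difference that was not tested. SG exceeded Total by more than 2-fold on TPM + 1 in 59.7% of the 4928 host genes above 1 TPM, where 62.9% of all genes and 64.7% of the other genes did, and fell below 0.5-fold in 9.66%, against 9.45%. The median log2(SG/Total) on this scale was 1.48 in host genes, 1.54 in the other genes and 1.51 over all genes. Of the 20 genes with higher members above 10 RPKM, 12 were enriched and 0 depleted, among them JUN at 880 TPM in SG and 216 in Total and CCNL1 at 89.6 and 35.6. Of the 5 genes with lower members, 0 were enriched and 4 depleted, among them EEF1B2 at 50.9 TPM in SG and 464 in Total and CSNK2B at 29.1 and 163. LDHA, which was not depleted by this rule, was at 154 and 254. These are values of genes, and the part of NMD transcripts in them was not analysed.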

How the data were processed

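Reads of the rRNA-depleted libraries were cleaned with fastp and aligned to GRCh38 (HISAT2 2.1.0 per the submitters' processing notes). The methods name StringTie for TPM, with a GENCODE annotation. Which program gave the deposited values per transcript is not known, since these do not behave as TPM and count shared reads for each isoform. The deposited values per transcript are RPKM in substance: the columns sum to 1039719 and 1216810, and in 100.000% and 99.9993% of non-zero values with the exact transcript version, the value times the transcript length is a whole number of steps (tolerance 0.01). The authors deposited gene-level TPM for protein-coding genes of the poly-A libraries. eCLIP values were not used here. Types, exons, stop codons, canonical tags and sequences came from GENCODE release 44, which held 91.1% of the IDs of the table (12574 members by exact version).

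Changes were log2((AS + 1)/(untreated + 1)). The planned rule for naming took the largest and smallest changes above 10 RPKM, the highest means, the largest differences from the canonical transcript, and the top of each list. The members and lists were chosen with earlier results of these data known. Alternatives are given in the closing section. Intervals came from scipy 1.17.1 and tables from pandas 2.3.3 with numpy 2.4.6, figures were drawn by matplotlib 3.10.9 under Python 3.11.15, and the calling rule was tested on simulated data. A few items that meet the naming rule are not reported here.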

Additional observations from a re-analysis of the deposited data

How the results depend on the processing

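With 1 library per condition the counts depended on the thresholds. The 807 higher and 129 lower members became 112 and 29 at a fold of 4, 1697 and 581 at a minimum of 0.1, 136 and 20 at a minimum of 5, 39 and 9 at a minimum of 10, and 356 and 43 when both libraries had to be above 1. They were 146 and 37 on values plus 1, 327 and 224 with the median ratio of all transcripts set to 1, and 288 and 38 with 1 NMD transcript per gene. With equal sums over protein_coding transcripts 393 were higher, and 187 lower. Shares over all transcripts moved too. They were 3.32% higher and 3.46% lower with the median ratio set to 1, against 2.59% and 1.78% of members. At a minimum of 10 they were 1.15% and 0.172%, against 1.25% and 0.287% of members. The median log2 change of 0.25 was 0.30 and 0.31 with pseudocounts of 0.1 and 0.01, 0.22 and 0.27 at minimums of 0.1 and 5, 0.24 above 1 in both libraries, 0.16 with no minimum, and 0.05 and 0.06 after the rescalings by median ratio and by protein_coding sum. The median difference from the canonical transcript was -0.01 against the highest protein_coding transcript and -0.03 against their sum. The median change of the NMD share was 0.00 points, and 0.04 as a share of all transcripts of the gene. The NMD share of the summed values was 12.3% and 12.5% over protein-coding genes only, and 10.0% and 10.3% without the 10 highest members. A setting with exact transcript versions only, chosen after seeing the data, gave 785 and 121. No paired analysis was possible because the compared values come from 1 library per condition and no test. Isoform reads are shared and depth limits calls on short transcripts.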

Other observations

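Several members outside the groups above had a counting interval of the ratio wholly above 2 and were picked out for it after their values were seen. KIF15, a mitotic kinesin, had a member that went from 0.486 to 2.46 RPKM (31 to 133 reads). The 3 such members of NABP1, a single-stranded DNA-binding protein, went from at most 30 reads to between 49 and 129. CARS1, the cysteinyl-tRNA synthetase, had a member with 3 and 44 reads and another with 0 and 17. DNAJB14, an ER-membrane co-chaperone, had 5 members with a median log2 change of 1.04. Among genes with at least 5 members, those of TBK1, a kinase of innate immunity, numbered 24 with a median of 0.77, and those of MXI1, a MAX partner, 11 with 0.88. IPO4, an importin, had 5 with a median of -0.58, between -0.62 and -0.49.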
